A study of Mus musculus with 6 samples.

Results

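The caspase family was followed here through 7 genes chosen by symbol, Casp1, Casp4, Casp12, Casp2, Casp8, Casp9 and Casp6, out of 37620 genes in a table of raw counts per gene. All 7 had counts in every library, and all 7 passed the filter on low counts that left 14738 genes for testing. The data are RNA sequencing of polyadenylated RNA from the apex of the heart of wild-type (WT) C57/BL6J mice. In the dexmedetomidine group (DIR, 3 libraries) the vehicle of yohimbine, an antagonist of alpha-2 adrenergic receptors, came 30 min before dexmedetomidine at 10 µg/kg, an agonist of those receptors, and surgery began 20 min after the drug. In the vehicle group (IR, 3 libraries) the vehicles of both agents came before surgery, with no timing given for that group in the labels. All agents and vehicles went into a tail vein. Every animal then underwent myocardial ischaemia, an interruption of the blood supply, for 30 min and reperfusion for 120 min, so no group without ischaemia enters the comparison. Ages and sexes are not given in the labels, which also do not say whether each of the 3 libraries of a group came from a separate animal. P-values then measure only the spread between these libraries.

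Caspases are cysteine proteases that cut their substrates after aspartate. Of the inflammatory caspases, the products of Casp1 and Casp4 are activated on inflammasomes or by bacterial lipopolysaccharide and open the plasma membrane through gasdermins. Casp12 is listed with them here, but that description is not meant for it. Apoptotic initiators are activated on adaptor complexes and pass the signal to executioner caspases that dismantle the cell. Both routes have been studied in the reperfused heart. Caspases are made as inactive precursors, so a transcript level says nothing about protease activity.

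Levels are given as CPM, the counts of a gene per 1000000 counts of its library. Library sizes for CPM were summed over the genes that passed the filter on low counts and were scaled by TMM normalization. Summed gene counts, in units of 1000000, were 48.6, 42.7 and 43.3 after dexmedetomidine and 56.6, 50.3 and 51.4 after vehicle. They were thus lower in every dexmedetomidine library than in any vehicle library. Counts of single members lay between 166 and 1456, which puts the counting error of a member in a library at 2.62% to 7.76%. These errors cover counting only. Genes of the mitochondrial genome held 27.1%, 36.9% and 38.2% of gene counts after dexmedetomidine, against 25.2%, 22.01% and 23.3% after vehicle. Across all tested genes fold changes followed the GC content of the transcript. With genes split by GC content into 5 bins of equal size, from the lowest to the highest, the median log2 fold change (dexmedetomidine over vehicle) was 0.47, 0.15, -0.012, -0.15 and -0.30, and the values of each member are therefore also given after each library's trend over GC content and gene length was removed.

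The 3 inflammatory caspases, Casp1, Casp4 and Casp12, were higher after dexmedetomidine in every library than in any vehicle library, by 1.51-, 1.55- and 2.32-fold. Of all tested genes 15.6% were higher and 12.0% lower without overlap. In the lowest GC bin, which holds these 3 genes, 48.6% were higher without overlap. For the 4 apoptotic caspases the groups overlapped, with folds between 0.961 and 1.30 and 95% intervals of the log2 fold change that include 0. No member passed an adjusted p of 0.05 in edgeR's quasi-likelihood test, in which 0% of all 14738 genes did, and 3172 genes had an unadjusted p under 0.05. The inflammatory members were also the 3 with the lowest GC content, and with the GC and length correction their log2 fold changes were 0.15, -0.18 and 0.37, none of them past the test.

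Casp1, Casp4 and Casp12 lie next to each other on chromosome 9 in the GRCm38 annotation, on the same strand and with no other protein-coding gene between them. Because these neighbours were higher together, the 250 bases before the start of each are shown (RefSeq, GRCm38.p6, plus strand, 5′ to 3′), at chr9:5298267-5298516 for Casp1, chr9:5308599-5308848 for the first of 2 listed starts of Casp4 and chr9:5345226-5345475 for Casp12. Capitals mark matches to 3 motifs searched on both strands, an interferon response element core (GAAA, 2 free bases, GAAA), a STAT site (TTCNNNGAA) and an NF-kB site (GGG, 2 free bases, TTTCC).
Casp1: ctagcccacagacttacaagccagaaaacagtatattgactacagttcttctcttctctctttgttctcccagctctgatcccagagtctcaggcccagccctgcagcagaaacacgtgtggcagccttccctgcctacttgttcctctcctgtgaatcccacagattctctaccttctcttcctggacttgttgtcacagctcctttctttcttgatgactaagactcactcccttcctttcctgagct
Casp4: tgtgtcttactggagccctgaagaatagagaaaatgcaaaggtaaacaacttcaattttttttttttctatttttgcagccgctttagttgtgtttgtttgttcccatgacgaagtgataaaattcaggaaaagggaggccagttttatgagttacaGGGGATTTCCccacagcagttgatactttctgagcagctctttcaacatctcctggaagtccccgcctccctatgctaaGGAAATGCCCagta
Casp12: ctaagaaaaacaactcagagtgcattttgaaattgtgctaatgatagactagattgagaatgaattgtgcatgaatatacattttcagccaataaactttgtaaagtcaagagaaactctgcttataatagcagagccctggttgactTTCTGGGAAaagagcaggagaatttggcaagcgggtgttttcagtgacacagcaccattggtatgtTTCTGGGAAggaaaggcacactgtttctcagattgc

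The Casp4 window held the NF-kB motif at 2 places, 93 bases before the start as GGGGATTTCC and 14 bases before it on the other strand as GGGCATTTCC. Of 32851 promoter windows of this length, 1.41% held this motif, and 8 windows held it at 2 or more places, among them the overlapping windows of both Casp4 starts. The Casp12 window held TTCNNNGAA at 2 places, 102 and 36 bases before the start, both reading TTCTGGGAA. This motif, which reads the same on both strands and was counted once per place, occurred in 7.02% of all windows and at 2 or more places in 0.317% of them. The windows of Casp1, Casp2, Casp8, Casp9 and Casp6 held none of the 3 motifs, and the interferon motif, found in 2.98% of all windows, was in none of the 8 windows of the family. A match is a description of letters and not evidence that a factor binds.

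Casp12 (ENSMUSG00000025887) codes for a caspase at the endoplasmic reticulum of mouse cells that has been studied in the stress response of that organelle. It measured 9.53, 9.93 and 12.2 CPM after dexmedetomidine and 4.47, 4.23 and 4.93 CPM after vehicle. The lowest dexmedetomidine library stood 1.93-fold above the highest vehicle library, the widest gap in the family. The log2 fold change was 1.22 (SE 0.18, 95% interval 0.81 to 1.62), with an edgeR adjusted p of 0.101. No lower value was reached by any of the 14738 genes, and other genes, Birc2 and Rock1 among them, shared it. The unadjusted p of Casp12 ranked 5 among all. DESeq2 (adjusted p = 4.94e-06), which called 9.56% of genes in either direction, and limma-voom with quality weights (adjusted p = 0.0101), which called 14.3%, both called it. So did edgeR without vehicle replicate 3 (log2 fold change 1.28, adjusted p = 0.0120), a fit in which 6.13% of genes were called higher and 2.19% lower. With the GC and length correction its levels were 7.78, 7.96 and 7.84 CPM after dexmedetomidine and 5.82, 7.09 and 5.37 CPM after vehicle. The groups still did not overlap, which held in this direction for 11.2% of all tested genes and in the other for 7.04%, but the log2 fold change was 0.37 (SE 0.17, 95% interval -0.0075 to 0.75) and it was not called (edgeR adjusted p = 0.404). Over 18 alternatives its log2 fold change lay between 0.28 and 1.28 and its adjusted p between 4.94e-06 and 0.424.

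Casp4 (ENSMUSG00000033538) codes for the mouse protein also called caspase-11, a sensor of cytosolic lipopolysaccharide that cuts gasdermin D. In CPM per kilobase of gene length it was the highest of the family in dexmedetomidine replicates 1 and 3. It was below Casp8 in dexmedetomidine replicate 2 (5.54 against 6.40) and in every vehicle library. Casp4 measured 28.3, 20.6 and 30.6 CPM after dexmedetomidine, against 17.7, 17.7 and 15.9 CPM after vehicle. The vehicle libraries lay close together and dexmedetomidine replicate 2 lay nearest to them. Its log2 fold change was 0.63 (SE 0.17, 95% interval 0.26 to 1.00), with an edgeR adjusted p of 0.109. DESeq2 (adjusted p = 0.0209) and limma-voom (adjusted p = 0.0463) called it, and edgeR called it only when genes of low count were kept (adjusted p = 0.0465). With the GC and length correction it measured 23.6, 16.6 and 20.3 CPM after dexmedetomidine and 22.5, 28.8 and 17.3 CPM after vehicle. The groups then overlapped and the log2 fold change was -0.18 (SE 0.20, edgeR adjusted p = 0.754). The deposited gene length of Casp4, 3710 bases, is above the 1901 bases of its longest transcript in the reference, from which GC content was taken, so the corrected value rests on part of the counted sequence. The same holds for Casp12 (3840 against 2649 bases), Casp2 (6986 against 3529), Casp9 (5197 against 3897) and Casp8 (2777 against 2585). The deposited length of Casp6, 1676 bases, is below the 3914 bases of its longest transcript, and for Casp1 both are 1497 bases.

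Casp1 (ENSMUSG00000025888) codes for the protease that matures interleukin-1 beta and interleukin-18. It measured 6.03, 6.16 and 6.78 CPM after dexmedetomidine and 5.22, 3.34 and 4.01 CPM after vehicle. The dexmedetomidine libraries lay within a narrow range, and the lowest of them stood 1.15-fold above the highest vehicle library. The log2 fold change was 0.59 (SE 0.22, 95% interval 0.095 to 1.09) with an edgeR adjusted p of 0.169, and neither DESeq2 (adjusted p = 0.110) nor limma-voom (adjusted p = 0.155) called it. With the GC and length correction the groups overlapped, at 5.54, 5.27 and 5.44 CPM after dexmedetomidine and 5.92, 4.38 and 4.35 CPM after vehicle. The corrected log2 fold change was 0.15 (SE 0.20, edgeR adjusted p = 0.793).

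**Figure D1:**
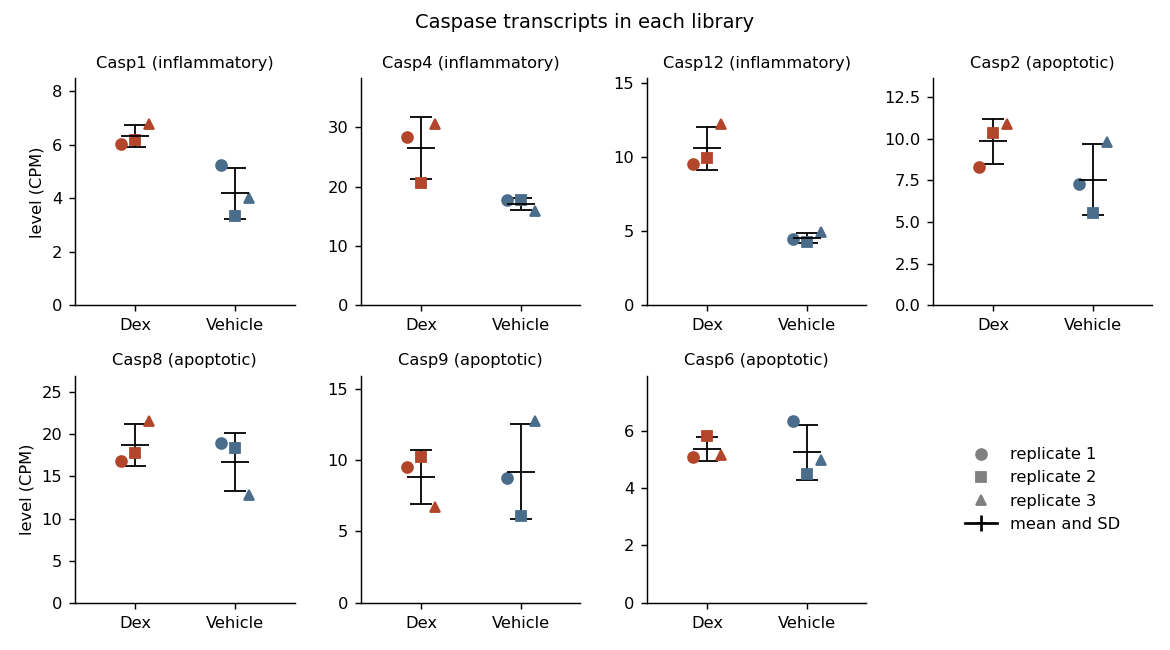
Level in CPM (y axis, linear, from 0) of each caspase in the dexmedetomidine (Dex) and vehicle libraries, with marker shape for the replicate and black bars for mean and SD (n = 3 each). Casp1, Casp4 and Casp12 have no overlap between the groups, with Casp12 at 9.53 to 12.2 CPM after dexmedetomidine and 4.23 to 4.93 CPM after vehicle, and the groups overlap for Casp2, Casp8, Casp9 and Casp6.

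Among the apoptotic initiators, Casp2 (ENSMUSG00000029863, chromosome 6), whose product is activated on the PIDDosome, measured 8.33, 10.3 and 10.9 CPM after dexmedetomidine and 7.29, 5.54 and 9.79 CPM after vehicle. Vehicle replicate 3 lay inside the dexmedetomidine range. Its log2 fold change was 0.38 (SE 0.23, 95% interval -0.12 to 0.89, edgeR adjusted p = 0.357) and with the GC and length correction 0.31 (SE 0.21). It was 0.20 without vehicle replicate 2 and 0.62 without vehicle replicate 3, with no call in either case. In the GRCm38 annotation Casp2 overlaps Gm25108, a small nucleolar RNA gene on the same strand, which had 2 counts in all libraries together.

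Casp8 (ENSMUSG00000026029, chromosome 1), the initiator recruited by death receptors and also a brake on necroptosis, measured 16.9, 17.8 and 21.5 CPM after dexmedetomidine and 19.0, 18.3 and 12.8 CPM after vehicle. Vehicle replicates 1 and 2 lay within the dexmedetomidine range and vehicle replicate 3 below it. The log2 fold change was 0.16 (SE 0.18, 95% interval -0.24 to 0.57, edgeR adjusted p = 0.639), and 0.0052 without vehicle replicate 3. Casp8 overlaps the annotated locus Gm37760 in the annotation on the same strand, so part of its counts is uncertain. The interval leaves room for a fold from 0.846 to 1.49.

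Casp9 (ENSMUSG00000028914, chromosome 4), activated by cytochrome c on the Apaf1 apoptosome, measured 9.53, 10.2 and 6.68 CPM after dexmedetomidine and 8.74, 6.085 and 12.7 CPM after vehicle. Its vehicle libraries were spread more widely than those of any other apoptotic member relative to their mean, and they enclosed all dexmedetomidine values. The log2 fold change was -0.058 (SE 0.28, 95% interval -0.68 to 0.56, edgeR adjusted p = 0.930), at 0.25 without vehicle replicate 3 and -0.28 without vehicle replicate 2. In the GRCm38 annotation Casp9 overlaps Cela2a and Ctrc on the opposite strand, which had 3 and 4 counts in all libraries together, and 1.20% of 50-base windows of its longest transcript also occur in theirs. Casp8 shared 5.05% of such windows with Gm20257 and Casp6 0.0259% with another gene, while Casp1, Casp4, Casp12 and Casp2 shared none.

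Casp6 (ENSMUSG00000027997, chromosome 3), an executioner caspase known for cutting lamin A, measured 5.10, 5.83 and 5.14 CPM after dexmedetomidine and 6.32, 4.47 and 4.96 CPM after vehicle. The dexmedetomidine values all lay between the vehicle values of replicates 3 and 1. The log2 fold change was 0.027 (SE 0.21, 95% interval -0.44 to 0.50, edgeR adjusted p = 0.959).

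**Figure D2:**
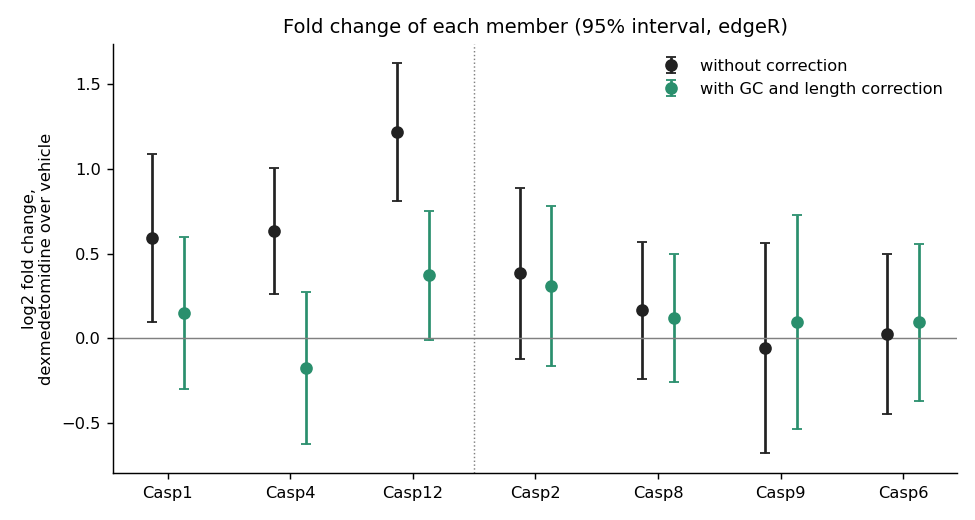
Log2 fold change of dexmedetomidine over vehicle (y axis) for each caspase, as points with 95% intervals from edgeR, without (black) and with (green) the GC and length correction; inflammatory members stand left of the dotted line. Casp12 is at 0.37, Casp4 at -0.18 and Casp1 at 0.15 with the correction, against 1.22, 0.63 and 0.59 without it. The intervals of the apoptotic members include 0 either way, and those of the inflammatory members include 0 with the correction only.

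Set beside all genes, 3 of 7 members had groups that did not overlap, all of them higher, where 27.6% of all tested genes had no overlap, 15.6% higher and 12.0% lower. The same 3 had an unadjusted edgeR p under 0.05, against 12.5% of all genes in that direction and 9.03% in the other. DESeq2 called 2 of 7 members higher, against 6.61% of genes higher and 2.95% lower, and limma-voom 2 of 7, against 8.98% higher and 5.31% lower. The median log2 fold change of the members was 0.38, and 6 of 7 were above 0, against a median of 0.0032 and 50.3% above 0 over all tested genes. With the GC and length correction the members' median was 0.12, against 0.039 over all genes, 6 of 7 were above 0, against 55.8%, and 0 of 7 had an unadjusted edgeR p under 0.05, against 12.6%. With that correction 0 of 7 were called by DESeq2, against 2.18% of genes, and 0 of 7 by limma-voom, against 0%.

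GC content ordered the members almost as their fold changes did. Casp12, Casp4 and Casp1 had GC contents of 37.3%, 38.1% and 41.1% in their longest transcripts, all in the lowest of the 5 GC bins, in which the median log2 fold change was 0.47 and 48.6% of genes were higher without overlap. Casp8, Casp2, Casp6 and Casp9 had 46.6%, 47.7%, 48.6% and 53.4%. The medians of their bins were 0.15 for Casp8 and Casp2, -0.012 for Casp6 and -0.15 for Casp9. Casp12 lay above the interquartile range of its bin, 0.21 to 0.85, and Casp2, at 0.38, lay just above the upper quartile of 0.36 of its own, while the other 5 members lay inside theirs. In this design membership of the inflammatory set and low GC content cannot be told apart among the 7 genes.

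**Figure D3:**
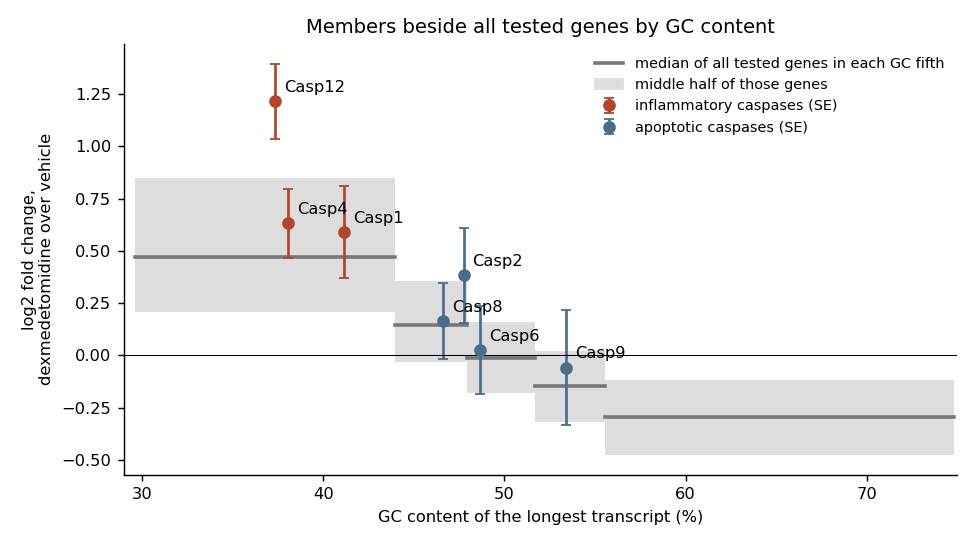
Log2 fold change of dexmedetomidine over vehicle (y axis) against GC content of the longest transcript in percent (x axis) for the 7 caspases (points, bars are SE), with the median (grey line) and interquartile range (grey band) of all tested genes in each of 5 GC bins. The inflammatory members lie at 37.3% to 41.1% GC in the bin with a median of 0.47, and Casp12 at 1.22 lies above its band.

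Levels of different genes are compared here as CPM per kilobase of the deposited gene length. After dexmedetomidine the order was Casp4 (7.14 ± 1.42 CPM per kilobase), Casp8 (6.74 ± 0.884), Casp1 (4.22 ± 0.269), Casp6 (3.19 ± 0.244), Casp12 (2.75 ± 0.379), Casp9 (1.70 ± 0.363) and Casp2 (1.41 ± 0.193; SD, n = 3). After vehicle it was Casp8 (6.01 ± 1.23), Casp4 (4.61 ± 0.274), Casp6 (3.13 ± 0.570), Casp1 (2.80 ± 0.636), Casp9 (1.77 ± 0.640), Casp12 (1.18 ± 0.0922) and Casp2 (1.08 ± 0.306). Library values of neighbours in the order overlapped for Casp4 and Casp8, Casp6 and Casp12, and Casp9 and Casp2 after dexmedetomidine, and for all pairs of neighbours but Casp4 and Casp6 after vehicle. With mitochondrial genes left out, all 14 mean levels were higher and both orders stayed the same. Casp4 was then at 10.0 CPM per kilobase after dexmedetomidine and 6.54 after vehicle.

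The inflammatory members made up 53.8%, 47.9% and 53.9% of the summed level per length of the family after dexmedetomidine, and 41.4%, 41.9% and 42.0% after vehicle. The vehicle libraries differed from each other by far less than from any dexmedetomidine library. Casp12 took 9.44%, 10.1% and 10.8% of the sum after dexmedetomidine and 5.12%, 5.70% and 6.53% after vehicle, whereas the shares of Casp1 overlapped between the groups at 15.3% to 16.1% after dexmedetomidine and 11.6% to 15.3% after vehicle, as did those of Casp4. The summed level of the apoptotic members was 12.1, 13.3 and 13.7 CPM per kilobase after dexmedetomidine and 13.3, 11.2 and 11.4 CPM per kilobase after vehicle. With the GC and length correction the inflammatory share was 49.2%, 43.5% and 45.0% after dexmedetomidine and 46.5%, 53.3% and 43.6% after vehicle, and the groups overlapped.

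**Figure D4:**
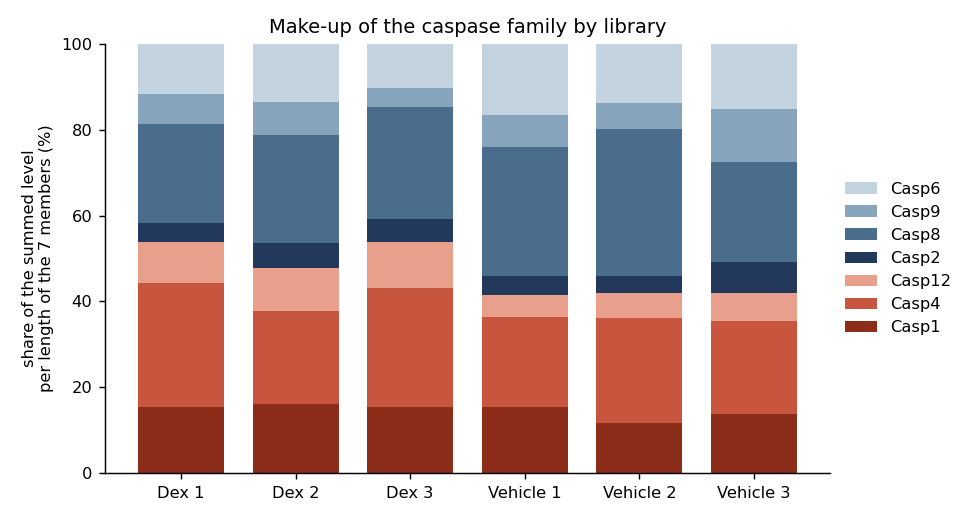
Share of each caspase (y axis, percent) in the summed level per length of the 7 members, 1 bar per library, with inflammatory members in reds at the bottom and apoptotic members in blues, without the GC and length correction. The reds reach 47.9% to 53.9% in the dexmedetomidine libraries and 41.4% to 42.0% in the vehicle libraries.

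The mean log2 level of each set was centred on its mean over the 6 libraries. Each inflammatory member had groups without overlap, so the separation of their mean follows from those values and is not a further result. The inflammatory set stood at 0.37, 0.25 and 0.59 after dexmedetomidine and at -0.28, -0.52 and -0.41 after vehicle. The apoptotic set stood at 0.00047, 0.17 and 0.060 after dexmedetomidine and at 0.041, -0.32 and 0.052 after vehicle, so that its groups overlapped. The inflammatory minus apoptotic difference was 0.37, 0.081 and 0.53 after dexmedetomidine and -0.32, -0.20 and -0.46 after vehicle. With the GC and length correction this difference was 0.11, -0.19 and -0.0098 after dexmedetomidine and -0.0056, 0.46 and -0.36 after vehicle, and the separation was gone.

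Cell type markers were measured in the same libraries, since the apex holds several cell types that express caspases, and in bulk tissue fewer cells of a type and less RNA per cell cannot be told apart. The summed level of 10 macrophage and monocyte markers was 166 to 213 CPM after dexmedetomidine and 171 to 204 CPM after vehicle, with 6 of 10 higher. That of 8 neutrophil markers, 7 of them tested and 7 of 7 higher, was 50.2 to 205 CPM after dexmedetomidine and 66.5 to 128 CPM after vehicle. Both lists overlapped between the groups. The 8 fibroblast markers summed to 1184 to 1409 CPM after dexmedetomidine and 1001 to 1096 CPM after vehicle, and the 8 smooth muscle and pericyte markers to 1628 to 1914 CPM and 1266 to 1429 CPM, in both lists without overlap, though single markers went both ways (5 of 8 and 3 of 8 higher). These sums carry no GC correction, and the most abundant marker of each list had low GC content. For Dcn (37.4% GC) the log2 fold change was 0.42, and -0.38 with the correction. For Rgs5 (41.1% GC) it was 0.66, and 0.13 with the correction. The list medians were 0.23 and -0.17, and 0.14 and 0.045 with the correction. The 10 cardiomyocyte markers summed to 47339 to 53795 CPM after dexmedetomidine and 54407 to 66418 CPM after vehicle, with 8 of 10 lower. The median log2 fold change of that list was -0.29, and -0.19 with the correction. Endothelial markers overlapped at 1046 to 1120 CPM and 1107 to 1197 CPM. No marker in these lists was at 0 in all libraries. Their part in the levels of the inflammatory caspases was not tested.

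In the pathways around the inflammatory caspases, 9 of 11 inflammasome sensors and adaptors were tested, 7 higher and 2 lower, with a median log2 fold change of 0.46 (0.17 with the GC and length correction) and 0 past the edgeR threshold. Nek7, a kinase that binds Nlrp3, measured 100.4, 136 and 139.99 CPM after dexmedetomidine and 81.5, 69.0 and 97.7 CPM after vehicle (log2 fold change 0.60, SE 0.17, edgeR adjusted p = 0.112), DESeq2 (adjusted p = 0.0307), limma-voom (adjusted p = 0.0144) and edgeR without vehicle replicate 3 (adjusted p = 0.0324) called it, and its corrected log2 fold change was 0.027. Naip5, a sensor of flagellin, was at 0.83 (SE 0.44, and 0.69 with the correction), at 1.37 without vehicle replicate 3 (edgeR adjusted p = 0.0695), and was called by limma-voom with all libraries (1.31, adjusted p = 0.0448). Pycard, the adaptor that joins sensors to caspase-1, was at -0.39 (SE 0.24, and -0.43 with the correction), at -0.62 without dexmedetomidine replicate 1 and at -0.22 without dexmedetomidine replicate 2.

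Of 5 substrates of the inflammatory caspases or gasdermins, 4 were tested. The cytokine gene Il1b measured 10.6, 31.8 and 25.1 CPM after dexmedetomidine and 6.98, 8.24 and 20.4 CPM after vehicle, with vehicle replicate 3 inside the dexmedetomidine range (log2 fold change 0.92, SE 0.49, edgeR adjusted p = 0.315, and 0.85 with the correction). With 1 library left out, edgeR called Il1b only without vehicle replicate 3 (1.56, adjusted p = 0.0420). That fit called 6.13% of genes higher and 2.19% lower. Without dexmedetomidine replicate 2 Il1b was at 0.58 (edgeR adjusted p = 0.645). Limma-voom called it with all libraries (1.47, adjusted p = 0.0307). Gsdme, a gasdermin opened by executioner caspases, had a log2 fold change of 0.92 (SE 0.29), called by DESeq2 (adjusted p = 0.0416), which the correction brought to 0.12. Gsdmd, the gasdermin opened by the products of Casp1 and Casp4, had one of -0.059 (SE 0.16), and of 0.21 after correction. Il18 fell under the filter on low counts.

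Upstream of Casp9, 7 of 7 genes of the apoptosome and of mitochondrial activation were tested, 3 higher and 4 lower, with a median log2 fold change of -0.14 (-0.0031 with the correction). The serine protease gene Htra2, an antagonist of caspase inhibitors, had a log2 fold change of -0.42 (SE 0.19, edgeR adjusted p = 0.226), and of -0.0031 after correction. The pore-forming Bax and Bak1 were at -0.30 (SE 0.19) and -0.24 (SE 0.18), and at 0.25 and 0.089 with the correction. Without dexmedetomidine replicate 1 Bax was at -0.53 and Bak1 at -0.41, and without dexmedetomidine replicate 3 Bax was at -0.19. Htra2, Bax and Bak1 had GC contents of 57.1% to 63.5%, in the bin with the lowest median.

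Around Casp8, 8 of 8 genes of the death receptor complex were tested, 3 higher and 5 lower, with a median of -0.063 (-0.042 with the correction). Cflar, a regulator that can block caspase-8 and lies next to Casp8 in the annotation, measured 108, 99.3 and 94.8 CPM after dexmedetomidine and 85.5, 79.6 and 79.6 CPM after vehicle. Its groups did not overlap, the log2 fold change was 0.31 (SE 0.11, edgeR adjusted p = 0.165) and it was 0.0097 with the correction. The receptor genes Fas and Tnfrsf1a were at 0.31 (SE 0.13) and -0.43 (SE 0.18), and at 0.11 and -0.13 with the correction. Tnfrsf1a passed in edgeR without vehicle replicate 3 (log2 fold change -0.61, adjusted p = 0.0270) and in limma-voom with all libraries (adjusted p = 0.0285). Of the PIDDosome genes around Casp2, Cradd was at 0.050 (SE 0.16) and Pidd1, at no more than 1.00 CPM in any library, at 0.76 (SE 0.67), with values of 1.19 without dexmedetomidine replicate 1, 0.21 without dexmedetomidine replicate 3 and 0.50 without vehicle replicate 1.

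Among inhibitors of apoptosis, which bind or mark caspases for degradation, 5 of 6 were tested and 5 of 5 were higher, with a median of 0.36 (0.12 with the correction) and 0 past the edgeR threshold. Birc2 measured 41.2, 33.8 and 36.6 CPM after dexmedetomidine and 22.02, 23.2 and 26.8 CPM after vehicle (log2 fold change 0.63, SE 0.14, edgeR adjusted p = 0.101, DESeq2 adjusted p = 0.00514, limma-voom adjusted p = 0.0111, and 0.0223 in edgeR without vehicle replicate 3), and it was at 0.32 with the correction. Birc6 was at 0.36 (SE 0.13, 0.12 with the correction), and limma-voom called it (adjusted p = 0.0400). Xiap, a direct inhibitor of caspase-9, had a log2 fold change of 0.52 (SE 0.21), of 0.31 without vehicle replicate 2, and of -0.42 after correction at a GC content of 36.8%.

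Of 10 substrates of apoptotic caspases, 3 were higher and 7 lower, with a median of -0.13 (-0.039 with the correction). Rock1, a kinase cut by executioner caspases in membrane blebbing, measured 70.7, 34.5 and 87.7 CPM after dexmedetomidine and 14.97, 9.67 and 22.8 CPM after vehicle (log2 fold change 2.02, SE 0.39, edgeR adjusted p = 0.101), and it was at 1.42 with the correction. DESeq2 (adjusted p = 2.00e-06), limma-voom (adjusted p = 0.0113) and edgeR without vehicle replicate 3 (2.38, adjusted p = 0.0113) called Rock1. Lmna, the lamin A gene and a target of caspase-6, measured 172, 113 and 114 CPM after dexmedetomidine and 235, 346 and 164 CPM after vehicle (log2 fold change -0.90, SE 0.28, edgeR adjusted p = 0.132, and -0.72 with the correction). DESeq2 (adjusted p = 0.0115), limma-voom (adjusted p = 0.0144) and edgeR without vehicle replicate 3 (-1.12, adjusted p = 0.0198) called Lmna, and without vehicle replicate 2 it was at -0.58 (edgeR adjusted p = 0.246). Pak2, another kinase cut in apoptosis, was at 0.25 (SE 0.12, -0.064 with the correction).

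Genes with the pattern most like each member over the 6 libraries were taken by the root mean square difference in centred log2 CPM among 13054 protein-coding genes. For Casp12 these were Msr1 and Cops2 (differences of 0.13 and 0.13, against a spread of Casp12 itself of 0.67, SD over the 6 libraries). For Casp1 they were C1galt1c1 and Abce1 (0.054 and 0.060) and for Casp4 Uxs1 and Tstd3 (0.060 and 0.080). The genes nearest to these 3 members had GC contents between 37.3% and 44.3%. Casp2 was followed most closely by Stxbp6 and Mapk1ip1, Casp8 by Tnfrsf23 and Ppp2r1b, Casp9 by Zfp324 and Dok4, and Casp6 by Gtf3c4 and Eif2ak4, at differences of 0.036 to 0.099. Among the members themselves the smallest difference was 0.24, between Casp1 and Casp4, and the largest 0.72, between Casp12 and Casp9.

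**Figure D5:**
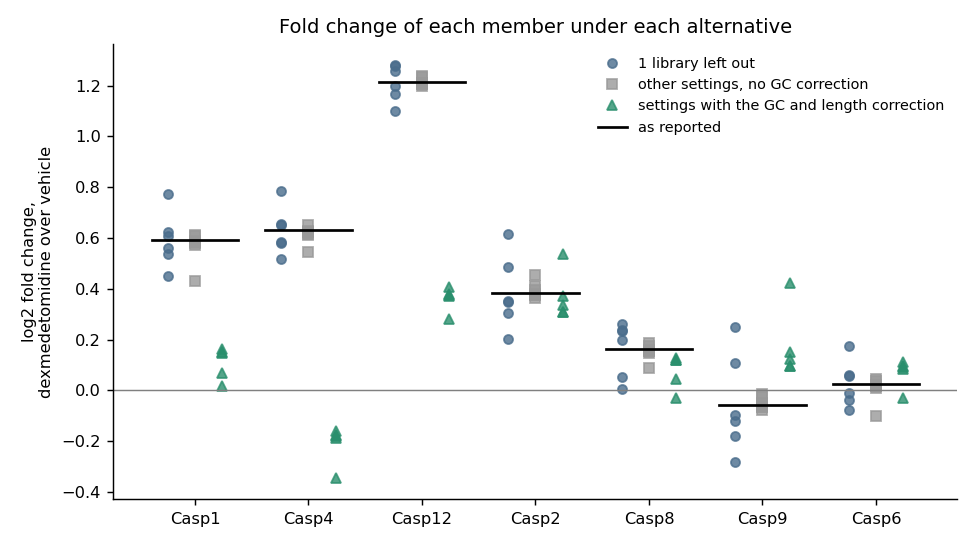
Log2 fold change of dexmedetomidine over vehicle (y axis) of each caspase as reported (black line), with 1 library left out (blue), under other settings without the GC correction (grey) and under settings with it (green). Casp12 is above 0 in every setting drawn, between 0.28 and 1.28, and Casp4 is below 0 wherever the correction is applied.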

How the data were processed

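All 6 libraries share a table deposited by the authors, which holds unnormalized counts for each gene beside the gene's length in bases. Tools named in the submitters' processing notes are Trim Galore and HTSeq, with mouse build mm9. For tool versions, aligner, annotation and strand, the sources used give nothing. Of 37620 genes, 32897 matched a symbol and a GC value. GC content came from the longest transcript (GENCODE M21, GRCm38) for 97.2% of tested genes. The 5 summary rows that name no gene stayed out of library sizes. Not uniquely aligned reads were 31.2%, 39.5% and 39.4% of the table total after dexmedetomidine and 31.4%, 28.6% and 28.05% after vehicle. Groups and columns came from the sample titles. EdgeR 4.0.16 in R 4.3.3 (TMM, filterByExpr, robust quasi-likelihood F test, two-sided, Benjamini-Hochberg) was fitted to all genes, with an adjusted p threshold of 0.05; SE is the log2 fold change over the square root of F, and 95% intervals use the t distribution. CPM are TMM-scaled, and log2 CPM add a prior count of 2. The correction removed per-library smooth trends over GC content and length (mgcv 1.9.3). DESeq2 1.42.0, limma 3.58.1, other filters and scalings, a replicate block and leaving out each library were alternatives. No 2 libraries agreed within sampling noise (chi-square per degree of freedom at least 30.98). Members and lists were chosen with earlier results of these data known. The named genes were all members, the 3 smallest p of each list and the 2 nearest patterns per member. Other caspases are not reported here.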

Additional observations from a re-analysis of the deposited data

How the results depend on the processing

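Genes past the threshold numbered 0 as reported, and 406 with no filter, 636 with the replicate block, 75 with the block and the GC and length correction, 1272 in DESeq2, 2107 in limma-voom, 265 in DESeq2 with the correction and 410 without vehicle replicate 3 with the correction. With 1 library left out they ran between 0 and 1251, with 1251 reached without vehicle replicate 3. Caspases past the threshold numbered 0 as reported, 2 with no filter, in DESeq2 and in limma-voom, 1 with the block, and between 0 and 1 with a library left out. Casp12 passed at 1.21 with no filter, 1.21 with the block, 1.21 in DESeq2 and 1.24 in limma-voom, and ran between 1.10 and 1.28 with a library left out; Casp4 passed at 0.63, 0.62 and 0.55 with no filter, in DESeq2 and in limma-voom. Under the correction Casp4 was at -0.18 in edgeR, -0.16 with the block, -0.18 in DESeq2, -0.19 in limma-voom and -0.35 without vehicle replicate 3, and Casp9 at 0.096, 0.15, 0.096, 0.12 and 0.42. The correction removes a trend that these genes share with others of like GC content; the cause of that trend was not tested. Casp6 was at -0.10 in limma-voom and -0.029 there with the correction, and Casp8 at -0.031 without vehicle replicate 3 with the correction. With a library left out, Casp9 ran between -0.28 and 0.25, Casp6 between -0.077 and 0.18, and Cradd between -0.00082 and 0.15. With the correction Gsdmd was at 0.21, Bax at 0.25, Bak1 at 0.089, Cradd at -0.0077, Xiap at -0.42 and Pak2 at -0.064. The causes of the changes under other tools and left-out libraries were not tested. Casp1 and Casp2 kept their direction and missed the threshold in all 18 alternatives. Same-numbered libraries deviated together with correlations of -0.055, 0.036 and 0.15, so the numbers were not taken to pair them. For lowly counted genes such as Pidd1, depth limits what can be seen.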

Other observations

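Pdgfd, the protein-coding gene after Casp12 on chromosome 9, measured 23.7, 28.0 and 25.2 CPM after dexmedetomidine and 15.8, 11.6 and 18.1 CPM after vehicle, without overlap. Its log2 fold change was 0.75 (SE 0.18, edgeR adjusted p = 0.101), and 0.16 with the GC and length correction at a GC content of 39.9%. Gria4, the gene before Casp1, had 6, 14 and 1 counts after dexmedetomidine and 0 in each vehicle library, under the filter on low counts. Msantd4, before Gria4, had a log2 fold change of 0.13 (SE 0.14), and of -0.20 after correction.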
